A study of Mus musculus with 16 samples.

Results

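The hair keratins and the keratin-associated proteins (gene symbols beginning with Krtap) are the building material of the hair shaft and of the sheath that moulds it, and 60 such genes were followed among the 20832 genes with a named probe. A gene was taken by its RefSeq symbol, either as any Krtap gene or as one of the keratins Krt25, Krt27, Krt28, Krt31, Krt32, Krt33a, Krt33b, Krt34 to Krt36, Krt71 to Krt75 and Krt81 to Krt86. It was read through the probe with the highest mean level over the 16 arrays, and it was kept where the scanner software flagged that probe as well above background on at least 2 arrays. Of the 70 genes with a probe of such a name, 60 were kept: 7 of 7 inner root sheath keratins, the companion layer keratin Krt75, 11 of 11 shaft keratins and 41 of 51 Krtap genes. Krt83 and Krt85 were not analysed here. At the limit, Krt32, Krtap7-1, Krtap9-3, Krtap13-1 and Krtap15 were well above background on exactly 2 arrays and were kept, whereas Krtap2-4, Krtap4-2, Krtap6-2 and Krtap19-1 were so on 1 array and were not. Among the members, 33 were well above background on all 16 arrays.

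The RNA came from full-thickness punch wounds of 4 mm in the shaved back of female mice, harvested with the intact skin around them. The WT group held C57BL/6J mice aged 10 to 12 weeks. The other groups held mice of the strain C57BLKS/J Iar-+Leprdb/+Leprdb, aged 10 weeks and homozygous for the db allele of Lepr, the leptin receptor, in every cell, so that strain and Lepr genotype cannot be told apart. Every wound had a hydrocolloid dressing; WT and db/db wounds received nothing else, db/db + estrogen wounds received estradiol benzoate in sesame oil daily (0.75 μg/g/day), and db/db + vehicle wounds received the oil alone. Each group had 2 arrays labelled day 7 and 2 labelled day 14 after wounding, and no source used here says whether a pair came from separate mice, so p-values measure the spread between these arrays, which may be technical. The fold changes that the study prints for one day were found on the arrays labelled with the other. The harvest day behind a label is thus uncertain, and arrays are called by their labels throughout.

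The arrays gave a signal well above background for 70.1% to 79.0% of their 39429 probes. The 75th percentile of the signal, to which each array was scaled, was lowest on WT replicate 2 labelled day 14 (1091) and lay between 1204 and 2549 on the other 15 arrays. A level is given as log2 of the signal divided by that percentile, so that 0 marks a probe at the 75th percentile and values near −9 are the dimmest. For labelled day 7, slide 1 carried replicate 1 of every group and slide 2 carried replicate 2. For labelled day 14, slide 3 carried both db/db arrays and slide 4 both WT arrays. The labelled days were scanned on different days, and the scan cannot be told apart from the label.

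Hair is made while a follicle is in its growth phase. Matrix cells at the base of the follicle then differentiate into concentric layers, which are the companion layer, the inner root sheath, which hardens first and guides the fibre, and the cuticle, cortex and medulla of the shaft. In the shaft, acidic (type I) and basic (type II) hair keratins pair into filaments, and the keratin-associated proteins, divided into high-sulfur, ultra-high-sulfur and high glycine-tyrosine proteins, are made later and fill the space between them. In bulk tissue, fewer cells of a type and less RNA per cell cannot be told apart.

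The promoters of 4 members whose levels are described below are shown. Among them, Krtap3-1 was chosen after its values were seen and does not stand for the Krtap genes as a whole. Krt71 and Krt73 are type II keratins of the inner root sheath, Krt25 is a type I keratin of the same layer, and Krtap3-1 encodes a high-sulfur protein of the shaft. Each is the 250 bases before the gene start in RefSeq (GRCm38.p6), 5′ to 3′ on the minus strand, on which all 4 genes lie, with matches to TATAAA (the TATA box) and GATAAG (a core that GATA factors bind) in capitals. The Krt71 promoter lay at chr15:101743098-101743347, that of Krt73 at chr15:101802361-101802610, that of Krt25 at chr11:99322952-99323201 and that of Krtap3-1 at chr11:99566631-99566880.
Krt71: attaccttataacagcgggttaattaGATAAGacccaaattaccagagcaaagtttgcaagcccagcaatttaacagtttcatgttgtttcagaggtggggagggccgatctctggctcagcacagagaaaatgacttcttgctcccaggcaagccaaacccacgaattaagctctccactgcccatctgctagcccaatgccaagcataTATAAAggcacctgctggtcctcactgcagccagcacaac
Krt73: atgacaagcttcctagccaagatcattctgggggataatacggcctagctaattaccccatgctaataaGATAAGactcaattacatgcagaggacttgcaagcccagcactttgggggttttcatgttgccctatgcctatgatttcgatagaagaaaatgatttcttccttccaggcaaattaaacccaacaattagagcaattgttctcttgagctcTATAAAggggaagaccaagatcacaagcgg
Krt25: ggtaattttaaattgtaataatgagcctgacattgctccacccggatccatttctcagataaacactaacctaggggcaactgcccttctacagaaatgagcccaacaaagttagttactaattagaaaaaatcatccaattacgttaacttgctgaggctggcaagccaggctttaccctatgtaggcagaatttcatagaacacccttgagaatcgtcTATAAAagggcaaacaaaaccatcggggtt
Krtap3-1: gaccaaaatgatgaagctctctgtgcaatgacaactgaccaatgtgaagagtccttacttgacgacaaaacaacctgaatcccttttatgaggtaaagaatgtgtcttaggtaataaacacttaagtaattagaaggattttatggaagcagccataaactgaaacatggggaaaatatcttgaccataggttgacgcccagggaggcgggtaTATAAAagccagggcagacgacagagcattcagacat

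The TATAAA match began 40 bases before the start in Krt71, 30 in Krt73, 30 in Krt25 and 37 in Krtap3-1. The GATAAG matches lay further upstream, at 224 bases in Krt71 and 181 in Krt73. Of the 60 members, 51 had a promoter in the RefSeq table, read from 250 bases before to 50 after the start, and motifs were counted on either strand. TATAAA was present in 43 of 51 members' promoters, including 6 of 6 of the inner root sheath and 32 of 37 of the Krtap genes, against 13.6% of all 32851 promoters. GATAAG was present in 2 of 6 inner root sheath and 2 of 37 Krtap promoters, against 7.44% of all. TAATTA, a core that many homeodomain proteins bind, was present in 4 of 6 inner root sheath promoters and 5.29% of all. It was also present in 1 of 7 shaft keratin and 8 of 37 Krtap promoters. CTTTGAA, a core of LEF/TCF factors, was present in 4 of 7 shaft keratin and 7 of 15 high-sulfur Krtap promoters and in 5.14% of all. In the other classes it was present in 1 of 6 inner root sheath, 0 of 13 ultra-high-sulfur and 0 of 9 high glycine-tyrosine promoters, and not in that of Krt75. CTTTGAT, a variant of CTTTGAA, was present in 2 of 51 members' promoters and 3.73% of all. The palindromic estrogen response element, GGTCA and TGACC with 3 bases between them, was found in 0 of 51 members' promoters and in 0.07% of all. These motifs were chosen after the promoters had been read, and a match describes letters only.

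The members fell into genes whose levels spread widely over the arrays and genes whose levels hardly moved. The range between the lowest and the highest of the 16 levels had a median of 6.24 among the inner root sheath keratins, 4.21 among the shaft keratins, 3.22 among the high-sulfur, 2.59 among the high glycine-tyrosine and 1.403 among the ultra-high-sulfur Krtap genes. Krt25 had the widest range of the 60 (12.44) and Krtap5-5 the narrowest (0.60).

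**Figure D1:**
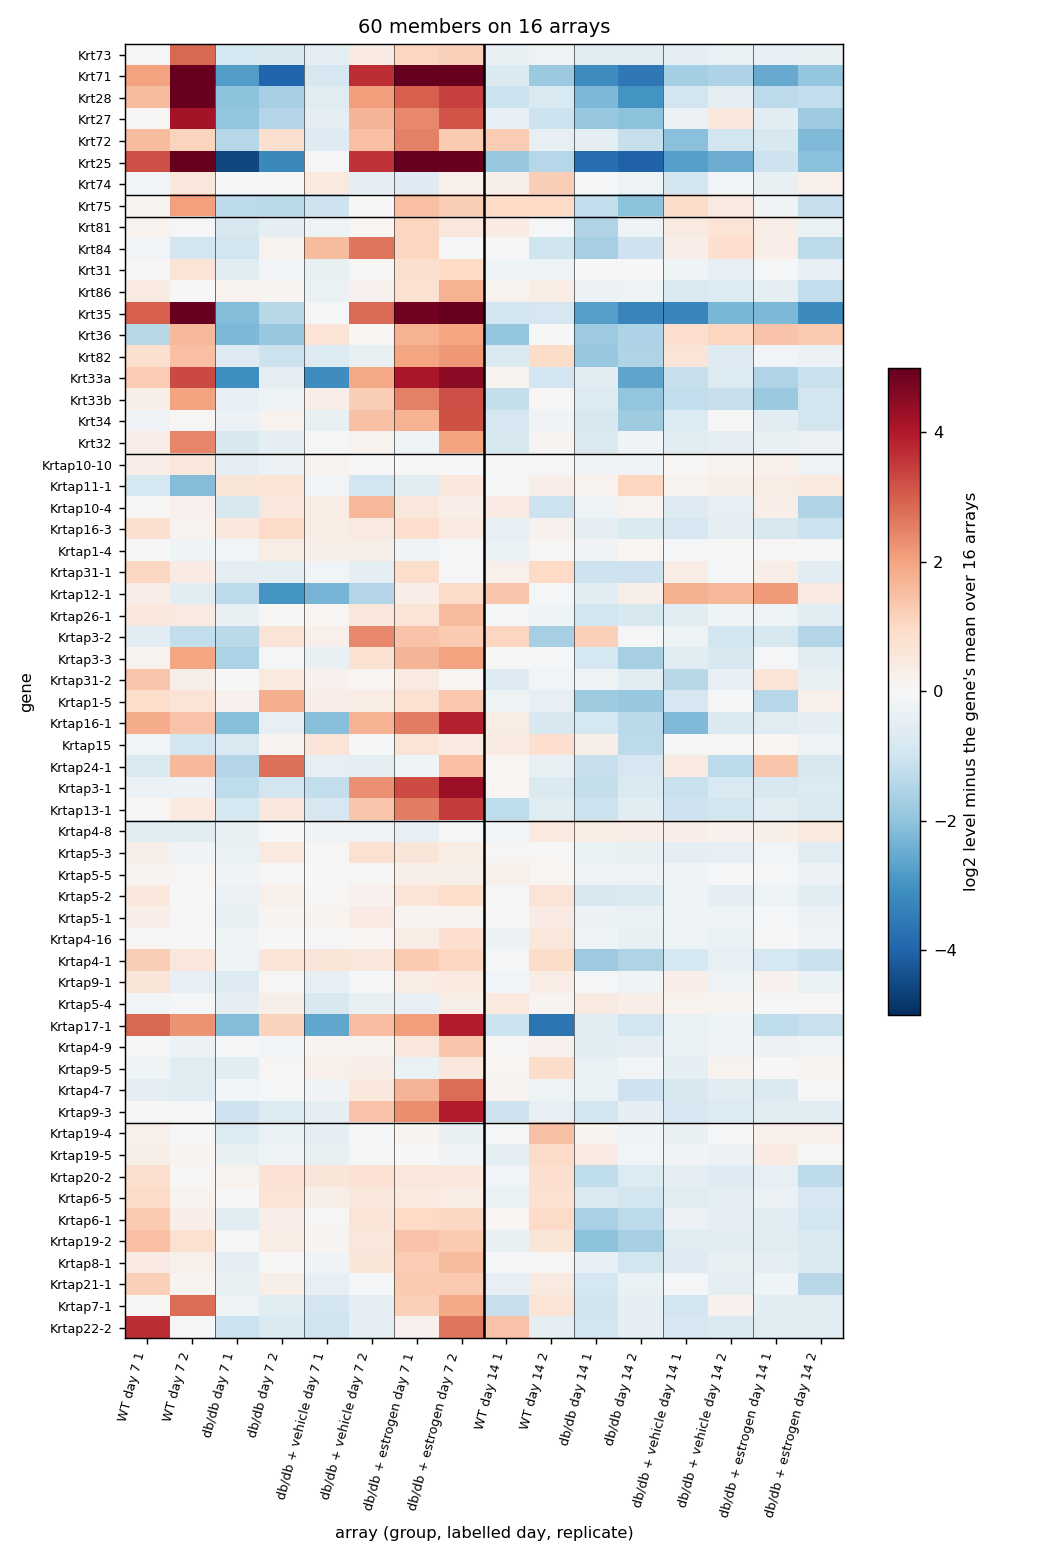
Deviation of each of the 60 members (rows, grouped by class) from its own mean over the 16 arrays (columns), in log2 units, red above and blue below the mean. For Krt71 the arrays labelled day 7 reach 3.998 in WT and 2.84 with estrogen as levels, against −6.04 and −7.21 in db/db.

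Inner root sheath keratins were lower in db/db than in WT on the arrays labelled day 7. Krt71 had levels of −1.20 and 3.998 in WT and of −6.04 and −7.21 in db/db, where 1 of the 2 arrays was well above background. Krt25, a type I keratin of the same layer, had −1.93 and 2.75 in WT and −9.69 and −8.34 in db/db, where neither array was well above background. The groups did not overlap for either gene, while the WT replicates themselves lay far apart, replicate 2 being the higher in both. Krt28 had −1.83 and 1.89 in WT against −5.44 and −5.06 in db/db, and Krt27 had −3.35 and 0.76 against −5.37 and −4.86. Krt73 had −1.38 and 1.60 against −2.13 and −2.07.

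A gene was called where limma's two-sided p was below 0.05 and the fold change above 2, and the adjusted p is that of Benjamini-Hochberg over all probes tested. For labelled day 7, 13 of the 47 members tested were called lower in db/db relative to WT, against 8.48% of all probes tested, and Krtap11-1 was called higher, against 5.71%. In 3 of the genes called, neither db/db array was well above background, so that they were tested through WT and had to be lower. Of all 14 calls, 8 also passed after adjustment, against 9.75% of all probes. The sheath keratins took 5 of the calls among 6 tested. Krt71 was 259.6-fold lower (log2 −8.02, SE 1.59, limma's adjusted p = 0.01) and Krt25 at least 225-fold lower (limma's adjusted p = 0.0029). Krt28, Krt27 and Krt73 differed by −5.28, −3.814 and −2.21 on the log2 scale, the last with an adjusted p of 0.059 from limma. The median log2 fold change of the 7 sheath keratins was −3.814, against −0.05 over all probes tested, and within slides 1 and 2 it was −3.03 and −5.61. Without WT replicate 2, the calls of Krt27 and Krt73 were lost.

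The companion layer and shaft keratins gave 5 calls among 9 tested, all lower. Krt35, an early type I keratin of the forming shaft, had levels of −1.63 and 2.04 in WT and −6.80 and −6.02 in db/db, which made it 97.7-fold lower (log2 −6.61, SE 1.12, limma's adjusted p = 0.0053). Krt33a, a cortex keratin, was at least 8.06-fold lower. Krt36, Krt82, a cuticle keratin, and Krt75 differed by −2.20, −2.02 and −2.41 on the log2 scale. The calls of Krt33a and Krt36 were lost without WT replicate 2 or db/db replicate 1, and that of Krt36 also without db/db replicate 2. Among the Krtap genes, 3 of 32 tested were called lower, namely Krtap12-1 and Krtap31-1 (−2.054 and −1.19 on the log2 scale) and Krtap16-1 (at least 3.07-fold lower), and Krtap11-1 was 2.15 higher. The median over the 41 Krtap genes was −0.41, or −0.30 with genes dim in one group at their bounds. Krtap genes named here and below, other than the 4 brightest of each class, were chosen after their values were seen.

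**Figure D2:**
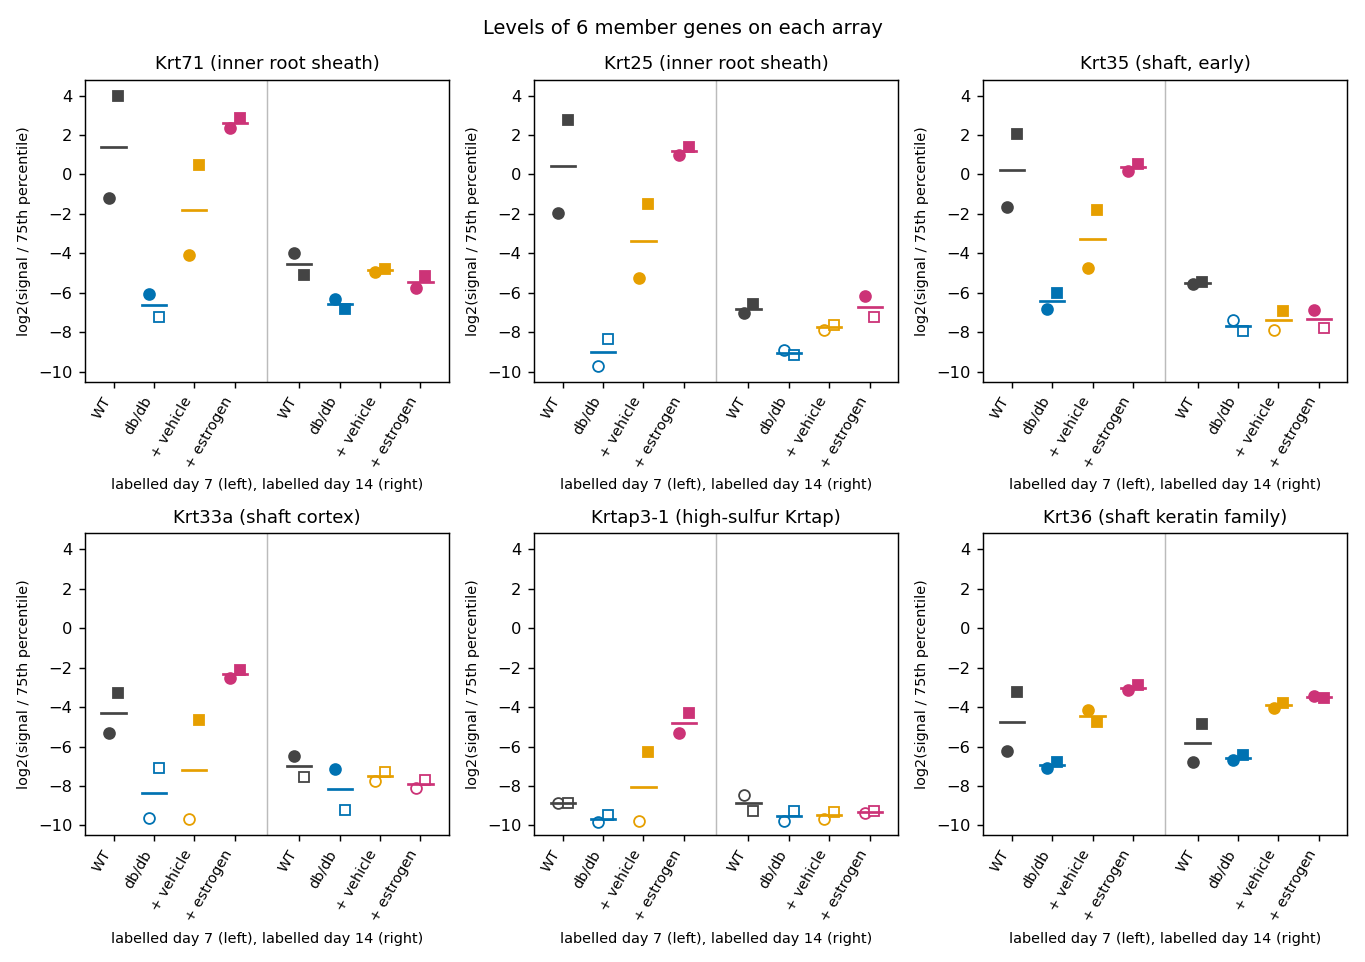
Level, as log2 of signal over the array's 75th percentile, of 6 members on the 2 arrays of each group (circle, replicate 1; square, replicate 2; filled, well above background; open, not; bar, group mean). Krtap3-1 reaches −4.29 with estrogen for labelled day 7, while its db/db levels are −9.82 and −9.48.

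Estrogen-treated db/db wounds had more of the sheath and shaft transcripts than untreated db/db wounds on the arrays labelled day 7. Krt71 had levels of 2.34 and 2.84, Krt25 of 0.99 and 1.402, Krt28 of −0.42 and 0.00 and Krt27 of −1.01 and −0.28 with estrogen. The 2 replicates lay within 0.73 of each other for these 4 genes. In total, 30 of the 54 members tested were called higher than in db/db, against 5.26% of all probes tested, and 0 were called lower, against 4.74%. Of these 23 also passed after adjustment, against 5.29%. The median over the 60 members was 1.21, or 1.098 with 11 genes at their bounds, against 0.04 over all probes tested. In 9 of the 30, neither db/db array was well above background; these were tested through the estrogen arrays and had to be higher there.

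By class, 6 of 6 inner root sheath keratins tested, Krt75, 9 of 10 shaft keratins and 14 of 37 Krtap genes were called higher. Krt71 was 593-fold higher (log2 9.21, SE 1.60, limma's adjusted p = 0.0088) and Krt25 at least 388-fold higher (limma's adjusted p = 0.0032). Krt28, Krt27, Krt72 and Krt73 differed by 5.04, 4.46, 2.24 and 1.96 on the log2 scale, and Krt74 was not tested. Within slides 1 and 2 the median of the class was 4.35 and 4.57. The calls of Krt72 and Krt73, whose adjusted p from limma were 0.21 and 0.14, were lost without db/db replicate 1, among other arrays.

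Among the shaft keratins, Krt35 had levels of 0.18 and 0.54 with estrogen, a log2 difference of 6.77 from db/db (SE 1.12, limma's adjusted p = 0.0071), or 109-fold. The cortex keratins Krt33a, Krt33b and Krt34 had no signal well above background in db/db. With estrogen Krt33a had levels of −2.51 and −2.10, Krt33b of −4.63 and −3.95 and Krt34 of −5.64 and −4.23. Krt33b and Krt34 were at least 8.67-fold and 5.51-fold higher. Krt34 was well above background on 3 arrays in all and would not have been kept without the estrogen ones. Krt36, Krt82, Krt81, Krt31 and Krt86 differed by 3.93, 2.93, 1.47, 1.22 and 1.08 on the log2 scale, and of the shaft keratins called, Krt86 alone did not pass after adjustment. Krt84 was tested and not called (log2 0.88), and Krt32 was not tested.

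Among the Krtap genes, those called with estrogen included several that were not well above background in db/db. Krtap3-1 had levels of −5.29 and −4.29 with estrogen and of −9.82 and −9.48 in db/db, and was at least 6.13-fold higher (limma's adjusted p = 0.0095). Krtap9-3, an ultra-high-sulfur protein gene, had −6.49 and −4.90 against −9.84 and −9.51, at least 3.28-fold higher. Krtap13-1 had −6.05 and −5.12 against −9.48 and −8.08, at least 3.536-fold higher. Krtap9-3 and Krtap13-1 were kept as members through these 2 estrogen arrays alone, which fixes their direction. Krtap3-1, well above background on 3 arrays in all, would not have been kept without them either. Krtap16-1 was at least 9.08-fold and Krtap4-7 at least 4.69-fold higher, while Krtap12-1, Krtap3-3 and Krtap17-1 differed by 2.80, 2.67 and 3.49 on the log2 scale, the last with an adjusted p of 0.18 from limma. Of the high glycine-tyrosine genes, 4 of 8 tested were called, and Krtap8-1 (1.65, SE 0.27, limma's adjusted p = 0.0073) passed after adjustment. The median of the 10 genes of that class was 1.16, and 0.31 with its 2 genes dim in db/db at their bounds.

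**Figure D3:**
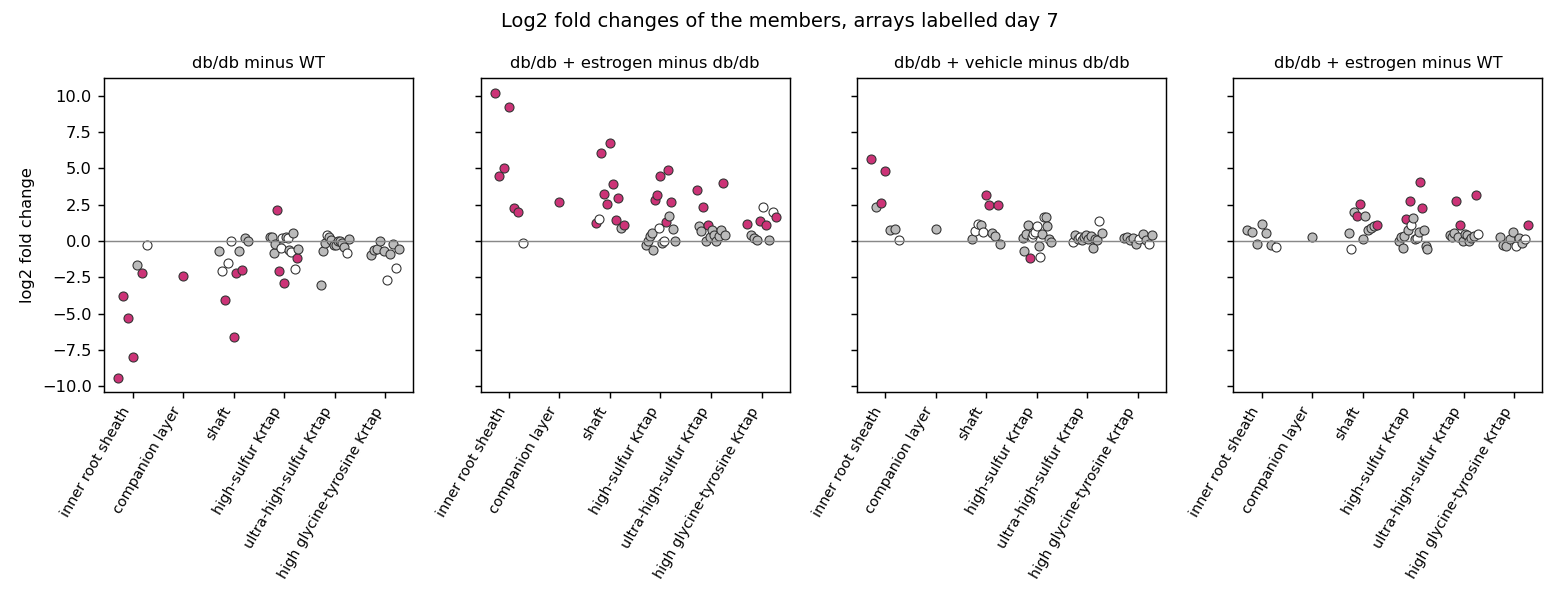
Log2 fold change of each member (points) by class in 4 comparisons on the arrays labelled day 7 (pink, called; grey, tested and not called; white, not tested). Krt71 lies at −8.02 for db/db minus WT and at 9.21 for estrogen minus db/db, points of genes dim in one group (such as Krt25, at the far end of both panels) are no measured sizes, and in the panel of estrogen minus WT 0 sheath points are called.

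The brightest Krtap genes were not called in the same comparison. Krtap19-4 had levels of 1.89 and 2.23 in db/db and of 2.69 and 2.19 with estrogen. Krtap10-10 had 0.13 and 0.32 against 0.57 and 0.56, and Krtap4-8 had −0.80 and −0.54 against −0.85 and −0.49. The 4 brightest genes of each of the 3 Krtap classes were Krtap10-4, Krtap10-10, Krtap11-1, Krtap16-3, Krtap4-8, Krtap5-2, Krtap5-3, Krtap5-5, Krtap6-5, Krtap19-4, Krtap19-5 and Krtap20-2, with log2 differences from −0.65 to 0.78, and 0 of the 12 were called. By chromosome, 7 of 17 Krtap genes tested on chromosome 11, 6 of 12 on chromosome 16, 1 of 3 on chromosome 10 and 0 of 5 on chromosome 7 were called. Of all probes tested 5.26% were called higher. Those on chromosome 7 were all Krtap5 genes, each read through its brightest probe, and the difference between chromosomes was not tested.

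Probes of one gene did not always give the same result. The brightest Krtap5-2 probe was well above background on all 16 arrays and differed by 0.78 between estrogen-treated and untreated db/db wounds for labelled day 7. The other Krtap5-2 probe had levels of −4.34 and −3.68 with estrogen, was not well above background on any of the other 14 arrays, and exceeded db/db at least 10.52-fold (limma's adjusted p = 0.0015). Krtap4-16 had 0.70 for its brighter probe and at least 5.88-fold for the dimmer one (limma's adjusted p = 0.0056). That probe too was well above background on the estrogen arrays labelled day 7 alone. The dim probes of Krtap5-2 and Krtap4-16 were thus tested through those arrays and had to be higher there. The 4 probes of Krtap5-5 had differences of 0.36, 0.68, 1.74 and 2.50, from the brightest to the dimmest. For Krtap11-1 the sign differed: in db/db against WT the bright probe had 2.15 and the dim one −1.05, and with estrogen against db/db they had −0.65 and 2.27. Both Krt28 probes gave similar differences (5.04 and 4.99), as did those of Krt36 (3.93 and 3.17). Krtap genes have near-identical copies, and which transcript a probe reads is uncertain.

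**Figure D4:**
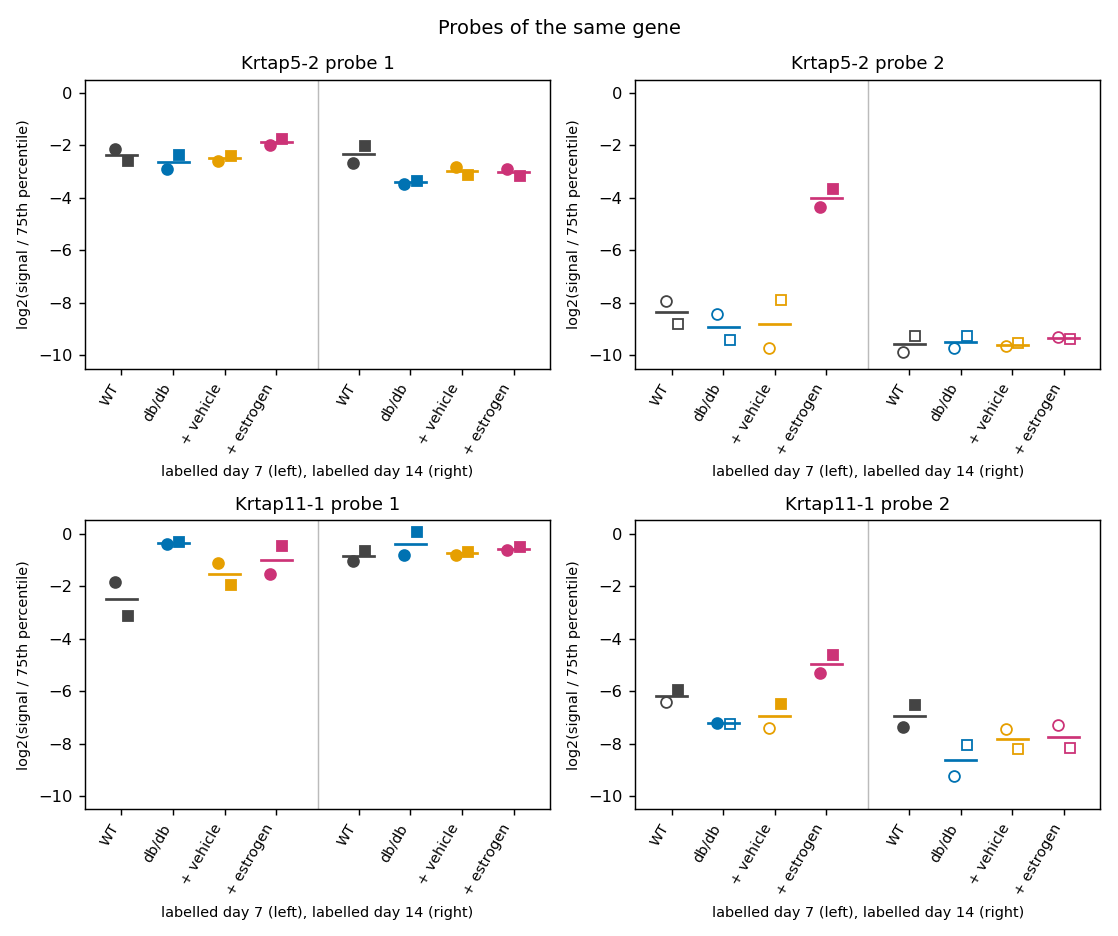
Levels of both probes of Krtap5-2 and of Krtap11-1 on each array, as log2 of signal over the 75th percentile (filled, well above background; open, not). The bright Krtap5-2 probe lies between −3.46 and −1.75 on all arrays, and the dim one is well above background on the db/db + estrogen arrays labelled day 7 and on no other.

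Set directly against WT for labelled day 7, estrogen-treated wounds gave calls for 3 of 10 shaft keratins tested, 8 of 36 Krtap genes and 0 of 6 sheath keratins. The difference between these classes was not tested. Of the 53 members tested, 11 were called higher than in WT, against 3.7% of all probes tested, and 0 lower, against 4.6%. Of these 7 also passed after adjustment, against 3.99%. The 11 were Krt33b, Krt34, Krt86, Krtap11-1, Krtap13-1, Krtap3-1, Krtap3-2, Krtap4-7, Krtap4-9, Krtap8-1 and Krtap9-3. Of them Krt34, Krtap13-1, Krtap3-1, Krtap4-7 and Krtap9-3 were not well above background on either WT array, so that 5 of the 11 were tested through the estrogen arrays and had to be higher. Krt71 differed by 1.19 with a 95% interval from −2.36 to 4.74, and Krt25 by 0.79 (from −2.32 to 3.90), so that differences of several-fold in either direction lie within the intervals. Leaving out db/db + estrogen replicate 2 lowered the count to 5, and normexp background correction lowered it to 2.

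WT replicate 2 had the highest levels of Krt71 (3.998), Krt25 (2.75) and Krt35 (2.04) among the 16 arrays. On that array Krtap3-1 (−8.87), Krtap9-3 (−8.90), Krtap13-1 (−8.12) and Krt34 (−7.35), taken from the genes called higher with estrogen than in WT, were not well above background. Of the shaft keratins 10 of 11 were well above background there, and of the Krtap genes 32 of 41. Relative to WT, estrogen-treated wounds had at least 3.49 times the Krtap3-1 signal (limma's adjusted p = 0.023) and at least 3.15 times that of Krt34 (limma's adjusted p = 0.044). Each of these genes was well above background on 3 arrays. Without the estrogen arrays neither would have been kept, which fixes the direction of both. Within slides 1 and 2, Krt71 differed by 3.543 and −1.16, with opposite signs.

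**Figure D5:**
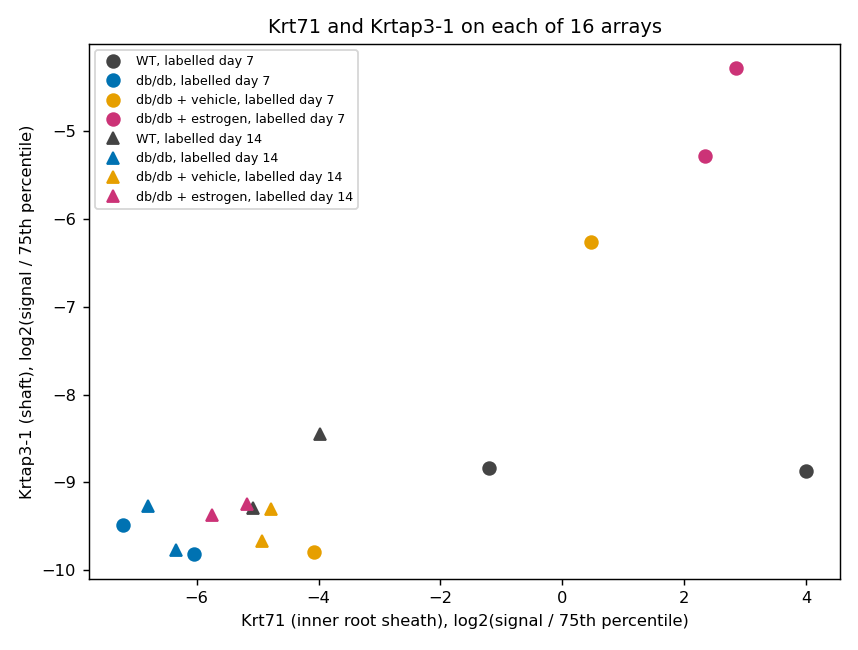
Krt71 level (horizontal) against Krtap3-1 level (vertical) on each of the 16 arrays, both as log2 of signal over the 75th percentile (circles, labelled day 7; triangles, labelled day 14). The db/db + estrogen arrays labelled day 7 are high for both genes, and WT replicate 2 of that label has a Krt71 level of 3.998 with a Krtap3-1 level of −8.87. Krtap3-1 would not have been kept as a member without those estrogen arrays.

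For 4 sheath and shaft keratins, vehicle alone gave levels between those of untreated and estrogen-treated db/db wounds, and its replicates differed. For labelled day 7, Krt71 was at −4.08 and 0.46, Krt25 at −5.23 and −1.52, Krt28 at −3.99 and −1.32 and Krt35 at −4.74 and −1.78. Replicate 2 was the higher for each. Krtap3-1 was well above background on replicate 2 (−6.27) and not on replicate 1 (−9.79). Relative to db/db, 6 of 45 members tested were called higher, against 2.55% of all probes tested, and Krtap11-1 was called lower, against 2.37%. Neither db/db array was well above background for Krt25, which was thus tested through the vehicle arrays and had to be higher. The genes called higher were Krt25, Krt28, Krt35, Krt36, Krt71 and Krt84. By limma's adjusted p 0 of these calls passed, against 0.255% of all probes, and the count of 7 was 12 without vehicle replicate 1 and 3 without vehicle replicate 2.

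Relative to vehicle, estrogen gave 22 members called higher and 1 called lower of 54 tested for labelled day 7, against 4.72% and 4.36% of all probes tested. The 6 that also passed after adjustment, against 3.35%, were Krt31, Krt82, Krtap4-7, Krtap8-1, Krtap9-3 and Krtap13-1. The first 4 had log2 differences of 1.05, 2.58, 2.0502 (well above background on 1 vehicle array) and 1.22. Krtap9-3 and Krtap13-1 were at least 2.95-fold and 3.18-fold higher, in a direction that the choice of members fixed, as both were kept through the estrogen arrays. Counting Krtap12-1, 3 of the genes called had no vehicle array well above background. Krt71, Krt25, Krt28 and Krt35 differed by 4.40, 4.57, 2.45 and 3.6199, called without passing after adjustment, and Krt84 was the member called lower (−1.62). Without vehicle replicate 1 the count of 23 fell to 9, and the calls of Krt71, Krt25, Krt28, Krt31, Krt35, Krt33a, Krt33b, Krt34 and Krt75 were among those lost. The call of Krt31 was also lost with normexp background correction and without estrogen replicate 2. The count was 15 without estrogen replicate 2. The comparisons of treated wounds with db/db share the db/db arrays, and those with WT share the WT arrays. For vehicle against WT, 2 members were called higher and 7 lower of 48 tested, against 3.93% and 6.49%, and 1 passed after adjustment, against 6.33%. Among those called lower, Krtap12-1 had no vehicle array well above background, was tested through WT and had to be lower.

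On the arrays labelled day 14, Krt71, Krt25 and Krt35 lay below all WT and estrogen arrays labelled day 7. Krt71 was between −6.80 and −3.97 on the 8 arrays, Krt25 between −9.16 and −6.17 and Krt35 between −7.93 and −5.45. Not all sheath keratins followed this order: Krt74, dim throughout, had its highest group mean in WT labelled day 14 (−6.75 and −5.81), and Krt72 had −2.79 and −4.488 there against −2.49 and −2.97 for labelled day 7. In db/db against WT, 10 of 46 members tested were called lower, against 15.7% of all probes tested, and 0 higher, against 2.38%. After adjustment 8 passed, against 14%. The share called is to be read against that of all probes, whose median log2 fold change was −0.12 (0.07 with quantile normalization), and the groups lay on separate slides. The genes called were Krt75, Krt81, Krt82, Krtap19-2, Krtap20-2, Krtap31-1, Krtap4-1, Krtap5-2, Krtap6-1 and Krtap6-5, with 0 of 7 sheath keratins among them. For Krt82 neither db/db array was well above background, so that it was tested through WT and had to be lower. The calls of Krtap5-2, Krtap6-5 and Krtap20-2 were lost with the mean over a gene's probes. Without WT replicate 2, the array with the lowest 75th percentile, the count was 6.

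Of the treated groups labelled day 14, estrogen gave 3 members called higher and 0 lower than db/db of 43 tested, against 2.61% and 1.38% of all probes tested: Krt36, Krt82 and Krtap19-2. Vehicle gave 10 higher and 0 lower of 41 tested, against 5.41% and 2.26%: Krt36, Krt75, Krt81, Krt82, Krt84, Krtap12-1, Krtap19-2, Krtap31-1, Krtap4-1 and Krtap6-1. In both comparisons Krt82 lacked a db/db array with clear signal, so that it was tested through the treated arrays and had to be higher. By limma's adjusted p 0 members passed in either comparison, against 0.156% and 0.386% of all probes. Between estrogen and vehicle, Krtap31-2 was called higher and Krt75 lower of 43 tested, against 0.521% and 0.514%, and 0 members passed after adjustment, against 0%. Relative to WT, estrogen had 1 higher and 5 lower of 46 tested, against 2.53% and 10.9%, with Krtap4-1 passing after adjustment, against 8.9%. Vehicle had 1 higher and 3 lower of 46, against 2.56% and 10.9%, and 0 passed after adjustment, against 9.37%.

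The difference between the labelled days was itself tested as an interaction. It was called for 18 of 54 members tested for estrogen against db/db, against 6.39% of all probes tested, and for 8 of 49 for db/db against WT, against 9.57%. It was called for 17 of 54 for estrogen against vehicle, against 7.31%, and for 2 of 47 for vehicle against db/db, against 2.94%. By limma's adjusted p 0 members passed in any of the 4, against 0.154%, 0.994%, 0.104% and 0.00328% of all probes.

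Krt36, Krt84 and Krt75 had patterns of their own. Krt36 and Krt84 are hair keratins that are also made in the papillae of the tongue. For labelled day 7, Krt36 had levels of −7.11 and −6.79 in db/db, −3.14 and −2.90 with estrogen and −4.17 and −4.77 with vehicle. For labelled day 14 they were −6.70 and −6.43, −3.45 and −3.55 and −4.03 and −3.8099. Both treated groups lay above db/db on both labelled days without overlap, by 3.93 and 3.06 for estrogen and 2.48 and 2.64 for vehicle on the log2 scale. WT was split, with −6.25 and −3.24 for labelled day 7 and −6.81 and −4.87 for labelled day 14. Of these 4 calls, that for estrogen and labelled day 7 passed after adjustment (limma's adjusted p = 0.021).

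Krt84 was highest, by group mean, with vehicle for labelled day 7. It had levels of −0.83 and 0.28 there, against −3.31 and −2.23 in db/db, −1.33 and −2.46 with estrogen and −2.53 and −3.37 in WT, and the difference between vehicle and WT was 2.677 (SE 0.66, limma's adjusted p = 0.032). Krt75, the keratin of the companion layer between the inner and outer root sheaths, differed between db/db and WT by −2.41 (limma's adjusted p = 0.023) for labelled day 7 and −2.62 (limma's adjusted p = 0.013) for labelled day 14. Its WT levels were −4.89 and −2.98, and −4.04 and −4.05, against −6.32 and −6.37, and −6.26 and −7.08, in db/db. With vehicle for labelled day 14 they were −4.13 and −4.59.

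Other genes of the follicle were read in the same samples from lists of known markers. Of 18 regulators of follicle growth and hair differentiation, 16 were tested for labelled day 7. Of these 10 were called lower in db/db wounds relative to WT, against 8.48% of all probes tested. After adjustment 8 passed, against 9.75%. With estrogen 5 of 16 were called higher than in db/db, against 5.26%, and 1 passed after adjustment, against 5.29%. Vehicle alone gave 4 of 15 called higher than in db/db, against 2.55%, and 0 after adjustment, against 0.255%. Between estrogen and vehicle, 3 of 16 were called higher with estrogen, against 4.72%, and 0 after adjustment, against 3.35%. Gata3, a regulator of the inner root sheath, had levels of 2.79 and 2.41 in WT, 0.21 and 0.97 in db/db, 2.47 and 2.37 with estrogen and 1.07 and 2.53 with vehicle. Hr, the hairless corepressor, differed by −1.43 between db/db and WT (limma's adjusted p = 0.015). Of 10 structural genes of the follicle that are no members, 9 were tested. With estrogen 3 were called higher than in db/db, against 5.26% of all probes tested, all 3 after adjustment too, against 5.29%. In this list 1 gene was called lower, against 4.74%, without passing adjustment. Tchh, the trichohyalin of the sheath and medulla, had levels of −0.26 and −0.07 with estrogen and of −2.90 and −1.95 in db/db. Among bulge genes 2 of 8, and among dermal papilla genes 3 of 7 tested, were called higher with estrogen, against 5.26%. After adjustment 1 and 3 of them passed, against 5.29%, and 1 dermal papilla gene was called lower, against 4.74%.

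Melanocytes supply pigment to the growing shaft. Of 7 melanocyte genes tested for labelled day 7, 5 were called lower in db/db relative to WT, against 8.48% of all probes tested. After adjustment 5 passed, against 9.75%. With estrogen 5 were called higher than in db/db, against 5.26%, and 1 passed after adjustment, against 5.29%. Dct, an enzyme of melanin synthesis, had levels of 2.24 and 2.81 in WT, −1.62 and −1.01 in db/db, 0.86 and 1.49 with estrogen and −3.17 and 0.34 with vehicle. The summed level of the 7 genes, as a ratio to the 75th percentile, was 7.56 and 10.9 in WT, 1.57 and 1.68 in db/db, 3.02 and 4.92 with estrogen and 0.249 and 2.06 with vehicle. In db/db, Oca2 and Slc45a2 had no signal well above background.

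Neutrophil genes and keratins of activated wound epidermis were read for labelled day 7 as well. Of 9 neutrophil genes 8 were called lower with estrogen relative to db/db (8 after adjustment, against 5.29%), against 4.74% of all probes tested. With vehicle 4 were called lower than in db/db (3 after adjustment, against 0.255%), against 2.37%. In db/db 6 were called higher than in WT (5 after adjustment, against 9.75%), against 5.71%. The summed levels of the 9 genes were 392 and 350.1 in WT, 445 and 517 in db/db, 50.2 and 65.0 with estrogen and 488 and 461 with vehicle. Of 4 wound-edge keratins 3 were called lower with estrogen relative to db/db (3 after adjustment, against 5.29%), against 4.74% of all probes tested. Their summed levels were 335 and 399 in WT, 229 and 222 in db/db, 42.4 and 35.3 with estrogen and 602 and 309.8 with vehicle. In the interfollicular epidermis 1 of 8 genes tested was called higher with estrogen than in db/db, against 5.26%. Krt14, a basal keratin, had levels of 6.07 and 5.88 with estrogen against 5.72 and 6.08 in db/db. Of the sebaceous gland genes 2 of 6 and of the adipocyte genes 1 of 6 were called higher, against 5.26%. Of the skeletal muscle genes 1 of 8 was called lower, against 4.74%. The part of these cells in the keratin differences was not tested.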

How the data were processed

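RNA of skin wounds was read on 16 one-colour mouse arrays (8 groups of 2). Per the submitters' processing notes, the authors ran Agilent Feature Extraction 11.0.1.1, which gave a background-subtracted intensity for each spot. The deposited value table holds signal ratios to each array's 75th percentile, which the scanner intensities gave within 1% for 99.86% to 99.91% of its 34643 probes per array, and it served as an alternative. Its columns were checked to be linear and uncentred in this way.

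Spots of a probe were averaged without control and outlier spots, and each array's log2 75th percentile was subtracted from log2 intensity. RefSeq accessions named 27427 of 39429 probes. limma 3.58.1 (R 4.3.3) was fitted to the 8 group means. In each comparison a probe was tested if one of the groups had it well above background on its 2 arrays, and p-values were adjusted over all probes tested. The thresholds (p below 0.05, fold change above 2) are the study's. An exact permutation test of 2 against 2 arrays cannot give a p below 0.333. Where no array of a group was well above background, the bound was taken against whichever was higher on an array, the dim signal itself or the lowest one flagged as well above background, with both averaged over the group. The fit was tested on simulated data. The text names all keratins and the 4 brightest genes of each Krtap class. The 3 brightest genes of each other list were set out to be named, but the text names only some genes of some of these lists. Of 115 fold changes printed by the study, 0 were met within 2% on arrays of the same labelled day and 114 on arrays of the other. The members and lists were chosen with earlier results of these data known. Alternatives were another background correction, normalization and filter, the deposited table, fits to 4 arrays, slide or replicate blocks, the mean over a gene's probes, the adjusted p as the call, and leaving out each array. The number of arrays limits the precision.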

Additional observations from a re-analysis of the deposited data

Results flagged for a closer look

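The difference between a pair of groups was compared between the labelled days by an interaction term in limma, and the members below are the named ones for which it passed the unadjusted p and the fold threshold. Values are the log2 difference for labelled day 7 minus that for labelled day 14. None passed Benjamini-Hochberg adjustment, and the labelled days were scanned on different days. For db/db against WT, they were −5.978 for Krt71, −7.203 for Krt25, −3.581 for Krt28, 1.662 for Krtap11-1, 1.359 for Krtap20-2 and −4.462 for Krt35. For db/db + estrogen against db/db, they were 5.789 for Krt33a, 3.308 for Krt33b, 8.107 for Krt71, 1.967 for Krt34, 3.676 for Krt27, 7.893 for Krt25, 3.687 for Krt28, 6.445 for Krt35, 1.457 for Krt31 and 1.631 for Krt86. For db/db + estrogen against db/db + vehicle, they were 5.263 for Krt33a, 2.326 for Krt33b, 2.301 for Krt34, 1.466 for Krt81, 3.197 for Krt75, 3.558 for Krt35, 1.413 for Krt86 and 2.809 for Krt82. The values for Krt25, Krt33a, Krt33b and Krt34, and those for Krt35 apart from the comparison with vehicle, rest in part on groups in which neither array was well above background, and are no measured sizes. Those for Krtap11-1 and Krtap20-2 come from the brightest probe, and other probes of these genes gave other differences.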

How the results depend on the processing

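The numbers of members called were 14 for db/db against WT (day 7), 30 for estrogen against db/db (day 7), 7 for vehicle against db/db (day 7), 23 for estrogen against vehicle (day 7), 11 for estrogen against WT (day 7), 9 for vehicle against WT (day 7), 10 for db/db against WT (day 14), 3 for estrogen against db/db (day 14), 10 for vehicle against db/db (day 14), 2 for estrogen against vehicle (day 14), 6 for estrogen against WT (day 14), 4 for vehicle against WT (day 14), the days being those of the labels. With the adjusted p as the call, the count became 8 for db/db against WT (day 7), 0 for vehicle against db/db (day 7), 6 for estrogen against vehicle (day 7), 7 for estrogen against WT (day 7), 1 for vehicle against WT (day 7), 0 for estrogen against db/db (day 14), 0 for vehicle against db/db (day 14), 0 for estrogen against vehicle (day 14), 1 for estrogen against WT (day 14) and 0 for vehicle against WT (day 14). With normexp background correction, the count became 19 for estrogen against db/db (day 7), 3 for vehicle against db/db (day 7), 12 for estrogen against vehicle (day 7), 2 for estrogen against WT (day 7), 4 for db/db against WT (day 14), 1 for estrogen against db/db (day 14), 4 for vehicle against db/db (day 14), 0 for estrogen against vehicle (day 14), 2 for estrogen against WT (day 14) and 1 for vehicle against WT (day 14). With quantile normalization, the count became 6 for db/db against WT (day 14), 5 for vehicle against db/db (day 14), 1 for estrogen against vehicle (day 14) and 2 for vehicle against WT (day 14). With a stricter filter on dim probes, the count became 8 for db/db against WT (day 7), 16 for estrogen against db/db (day 7), 14 for estrogen against vehicle (day 7), 4 for estrogen against WT (day 7) and 1 for estrogen against vehicle (day 14). With only the 4 arrays compared, the count became 5 for vehicle against WT (day 7), 6 for estrogen against db/db (day 14) and 1 for estrogen against vehicle (day 14). With slide as a fixed block, the count became 6 for estrogen against db/db (day 14), 1 for estrogen against vehicle (day 14) and 2 for vehicle against WT (day 14). Leaving out 1 array at a time gave 11 to 17 for db/db against WT (day 7), 24 to 33 for estrogen against db/db (day 7), 3 to 12 for vehicle against db/db (day 7), 9 to 25 for estrogen against vehicle (day 7), 5 to 16 for estrogen against WT (day 7), 6 to 13 for vehicle against WT (day 7), 6 to 12 for db/db against WT (day 14), 1 to 7 for estrogen against db/db (day 14), 5 to 10 for vehicle against db/db (day 14), 0 to 2 for estrogen against vehicle (day 14), 1 to 13 for estrogen against WT (day 14), 0 to 10 for vehicle against WT (day 14); where an array was left alone in its group it was assumed to vary like the other groups. The count moved over 1.5 times to the following values: for vehicle against db/db (day 7) 12 without vehicle replicate 1, 3 without vehicle replicate 2, for estrogen against vehicle (day 7) 9 without vehicle replicate 1, 15 without estrogen replicate 2, for estrogen against WT (day 7) 5 without estrogen replicate 2, for db/db against WT (day 14) 6 without WT replicate 2, for estrogen against db/db (day 14) 1 without db/db replicate 1, 7 without estrogen replicate 2, for vehicle against db/db (day 14) 5 without db/db replicate 1, 6 without vehicle replicate 1, 6 without vehicle replicate 2, for estrogen against vehicle (day 14) 0 without vehicle replicate 1, 1 without vehicle replicate 2, 1 without estrogen replicate 2, for estrogen against WT (day 14) 1 without estrogen replicate 2, 13 without WT replicate 1, 3 without WT replicate 2, for vehicle against WT (day 14) 0 without vehicle replicate 1, 10 without WT replicate 1, 2 without WT replicate 2. Same-numbered arrays of labelled day 7 shared a slide. Over all probes, deviations of same-numbered arrays had correlations from −0.26 to 0.24, but for labelled day 7 replicate 2 was the higher in all 4 groups for 13 of 60 members and replicate 1 for 0. With the replicate block the count for estrogen against vehicle (day 14) became 0, and the other counts stayed within 1.5 times. Of 979 alternatives to the 77 calls of named members, 817 kept the call, 162 lost it and 0 reversed its direction. The cause was not tested. Signal near background limits the dim Krtap genes to bounds.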
